A study of Mus musculus with 5 samples.

Results

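This is a comparison of lung cultures after doxycycline (Dox) was withdrawn with the same kind of culture before Dox was given, and it asks which genes kept, lost or passed the level they had before Dox. It rests on 2 of the 5 arrays of the series, 1 array a side. The array 2WND+2W+D+2W-D, called after withdrawal here, holds cells grown for 2 weeks without Dox, 2 weeks with Dox and 2 weeks without it again, and the array 2WND, called before Dox here, holds cells after the first 2 weeks. The other arrays hold cells at the end of the Dox step (2WND+2W+D, called with Dox), freshly isolated type II cells (Day0) and iPS cells, whose origin is not stated. The labels give adult lung as the source. According to the paper, the cultures began from sorted CD45-negative, CD31-negative, EpCAM-positive lung cells, taken as alveolar epithelial type II cells (AEC-II), of R26-rtTA/Col1a1::tetO-4F2A mice, which carry Oct4, Sox2, Klf4 and c-Myc under a Dox-dependent promoter, so the cells before Dox carried the silent transgenes too. The paper describes the arrays together with cells of such mice that also carried an Oct4-GFP reporter. It does not state outright which line the arrays used. The 4F2A cassette answers to Dox in every cell that expresses rtTA, since rtTA stands at the broadly active Rosa26 locus. According to the methods, the cells were grown in Matrigel on mouse embryonic fibroblast feeders, in epithelial medium for the first weeks and in embryonic stem cell medium with Dox after passaging, and equal amounts of RNA from separate samples were used for each group. Whether these were combined on the array is not stated, and neither is the medium of the last 2 weeks. No array holds cells cultured for as long without any Dox, so withdrawal, passage, time in culture and medium cannot be told apart. Of 22180 genes with a probe that names a single gene, 15436 were compared, those that reached 4.78, the median of all log2 values in the table, on some array. No condition had a replicate, so the differences below are between 2 arrays and carry no test, and a gene is called different when the arrays differ at least 2-fold, which is 1 on the log2 scale.

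AEC-II cells make surfactant and renew the alveolar surface, whereas the conducting airways are lined by club, ciliated, goblet and basal cells, each with its own secreted proteins, cilia or keratins. Dox switches on the Oct4, Sox2, Klf4 and Myc transgenes, which can erase such programs, and after Dox is removed a culture may rebuild the earlier program or settle elsewhere. The cultures were grown on feeder fibroblasts, and although the sort would remove leukocytes, macrophage and other leukocyte markers were measured on these arrays, as given below. On a bulk array fewer cells of a type and less RNA per cell cannot be told apart.

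Most genes were at the level before Dox. Of the genes compared, 71.4% were within 1.2-fold, 93.8% within 1.5-fold and 98.7% within 2-fold of their value in 2WND. After withdrawal, 137 genes were at least 2-fold higher, 0.888% of those compared, and 64 genes were at least 2-fold lower, 0.415%. The median difference of all genes was 0.00 on the log2 scale, with a robust spread of 0.23, and 50.3% of the genes lay above 0. The spread narrowed with level, being 0.30 for genes whose mean lay below 4.78 and 0.12 for genes at 10 or more. Of the 201 different genes, 132 were at or above 4.78 on both arrays, 59 were below it on 1 array and 10 were below it on both. For a gene below that level on 1 array, the fold is given as a lower bound counted from 4.78. The threshold has no gap around it, since 53 genes lay just inside it (differences of 1.0 to 1.1 in size) and 71 just outside (0.9 to 1.0).

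**Figure D1:**
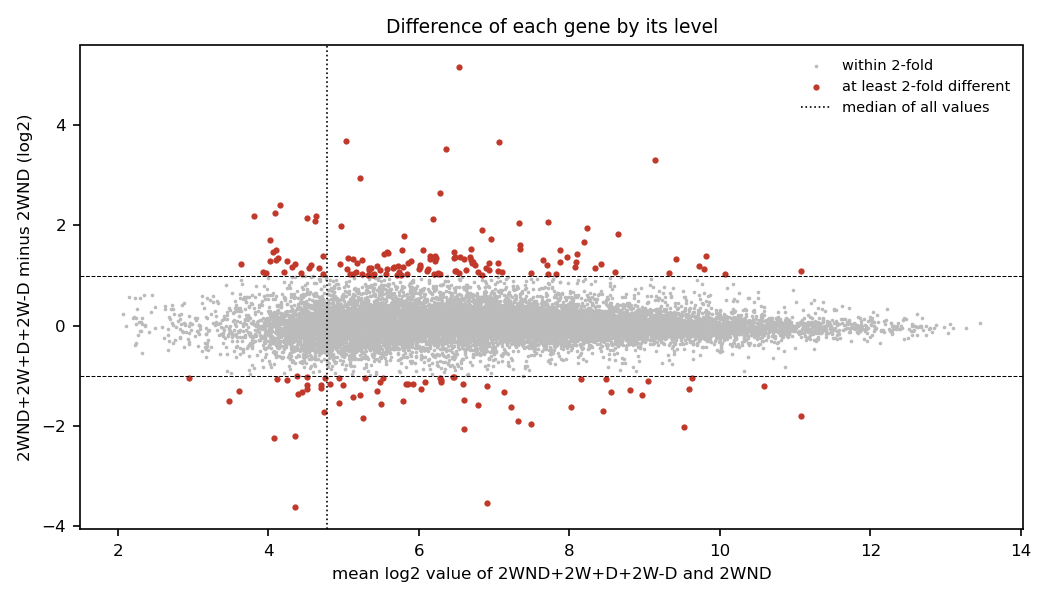
Each point is 1 of the 15436 genes, with the mean log2 value of 2WND+2W+D+2W-D and 2WND on the x axis and their difference on the y axis. Dashed lines mark 2-fold and the dotted line the median of all values, 4.78. The 201 red genes lie on both sides of a cloud that narrows as the level increases.

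Set beside the Dox step, the same genes fell into 5 classes. In 2WND+2W+D, 1065 genes were at least 2-fold higher than in 2WND, 6.9% of those compared, and 1167 were at least 2-fold lower, 7.56%. Of these, 2119 genes were back within 2-fold of 2WND after withdrawal. Another 77 genes kept the direction they had with Dox, 45 of them higher and 32 lower, and 36 genes overshot, lying at least 2-fold on the other side of 2WND, 27 of them higher and 9 lower. A further 88 genes differed from 2WND only after withdrawal, 65 higher and 23 lower, and 13116 genes stayed within 2-fold throughout. Both differences are taken from the same 2WND array, so an error on that array enters both, and the classes are a description.

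**Figure D2:**
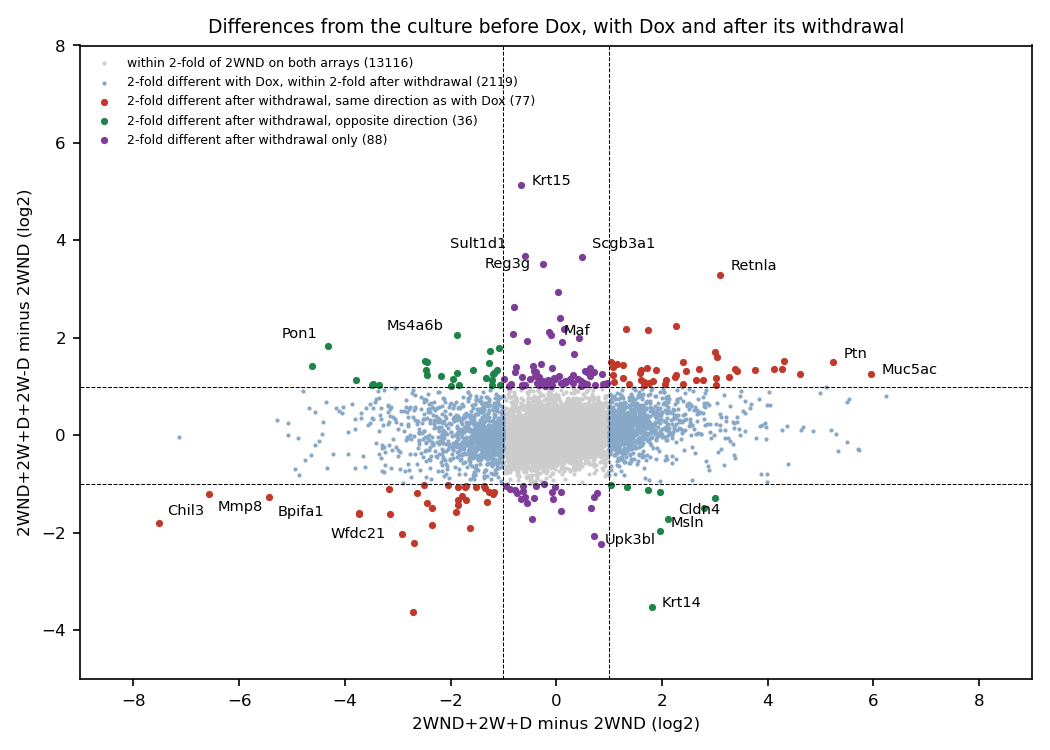
Each point is 1 gene, with the log2 difference of 2WND+2W+D from 2WND on the x axis and that of 2WND+2W+D+2W-D from 2WND on the y axis. Dashed lines mark 2-fold, and colors mark the 5 classes with their number of genes. Most genes that differed with Dox lie between the horizontal lines. Among the genes labelled, Krt15 lies farthest above these lines and Krt14 farthest below them.

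The alveolar program stayed within 2-fold of its level before Dox, which was not that of fresh cells. Of 27 AEC-II genes compared, 0 were at least 2-fold different, where 98.7% of all genes were within 2-fold. Their median difference was -0.02, against 0.00 for all genes. Their median level was 12.40 on Day0, 10.83 before Dox and 10.62 after withdrawal, so the level kept was below that of fresh cells. Sftpc, which encodes surfactant protein C, had a log2 value of 13.49 after withdrawal, against 13.44 before Dox. It stood at 13.43 both on Day0 and with Dox, the highest value on each of those arrays. A probe at the top of the scale may miss a change, which was not tested. By RT-PCR, the paper reports more of this RNA with Dox than before it. The largest differences in this list were 0.76 for Sftpa1, another surfactant protein, and -0.42 for the amino acid transporter Slc6a14. The lamellar body lipid transporter Abca3 had 11.02 after withdrawal, against 11.04 before Dox, and 9.92 with Dox. The lamellar body protein Lamp3 had 9.56 after withdrawal, against 9.33 before Dox, and 12.54 on Day0. Of the 27 genes, 6 had differed at least 2-fold with Dox, and all 6 were back within 2-fold. Most genes that differed with Dox did the same, with 2119 back over all genes, beside 77 that kept the direction and 36 that overshot.

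Alveolar type I (AEC-I) genes were nearly at the earlier level too, and a little lower. None of 20 passed 2-fold, but 18 of them lay below 0, with a median of -0.21, beside 0.00 over all genes. Rtkn2, a marker of type I cells, had 8.37 after withdrawal, against 9.11 before Dox, the largest difference of the list. The type I receptor Ager had 12.65 after withdrawal, against 12.84 before Dox, and the water channel Aqp5 had 9.63 after withdrawal, against 9.81 before Dox. Hopx, a homeodomain gene of type I cells and their progenitors, had 6.0 after withdrawal, against 6.10 before Dox, and 4.69 with Dox. By immunostaining, the paper reports Hopx protein in a large part of the surfactant protein C-positive cells with Dox, and fewer such cells after withdrawal. Protein in single cells and RNA of the whole culture are unlike measures, and the difference between them was not tested.

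Progenitor and epithelial genes also kept their level. None of 17 alveolar progenitor genes and none of 19 epithelial genes was 2-fold different. Since 98.7% of all genes were within 2-fold, a count of 0 in lists of this size is near the share over all genes. The integrin subunit Itga6 had 7.35 after withdrawal, against 7.23 before Dox, and 8.47 with Dox. Its partner subunit Itgb4 had 7.0 after withdrawal, against 6.83 before Dox, and 8.21 with Dox, so the subunits shared the pattern of a return. Lgr5, a stem cell receptor of the Wnt pathway, had 4.72 after withdrawal, against 4.62 before Dox, and 9.25 with Dox. The epithelial adhesion protein Epcam differed by -0.02. Of 27 pluripotency genes, 0 passed 2-fold, again near the share over all genes, with a median of -0.10. Nanog, a core pluripotency factor, had 5.00 after withdrawal, against 5.52 before Dox, and 12.15 in iPS cells. For the genes of the transgenes, Pou5f1 (Oct4) differed by 0.16, Klf4 by 0.17, Myc by -0.31 and Sox2 by 0.51. With Dox, they differed from 2WND by 0.23, 0.47, 0.11 and -2.1 in the same order, so the Sox2 probe showed no rise in the Dox step. Pou5f1 had 6.61 in iPS cells, so the small difference of its probe says little about Oct4. A probe cannot separate cassette and endogenous RNA unless it lies outside the shared sequence, which was not examined.

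**Figure D3:**
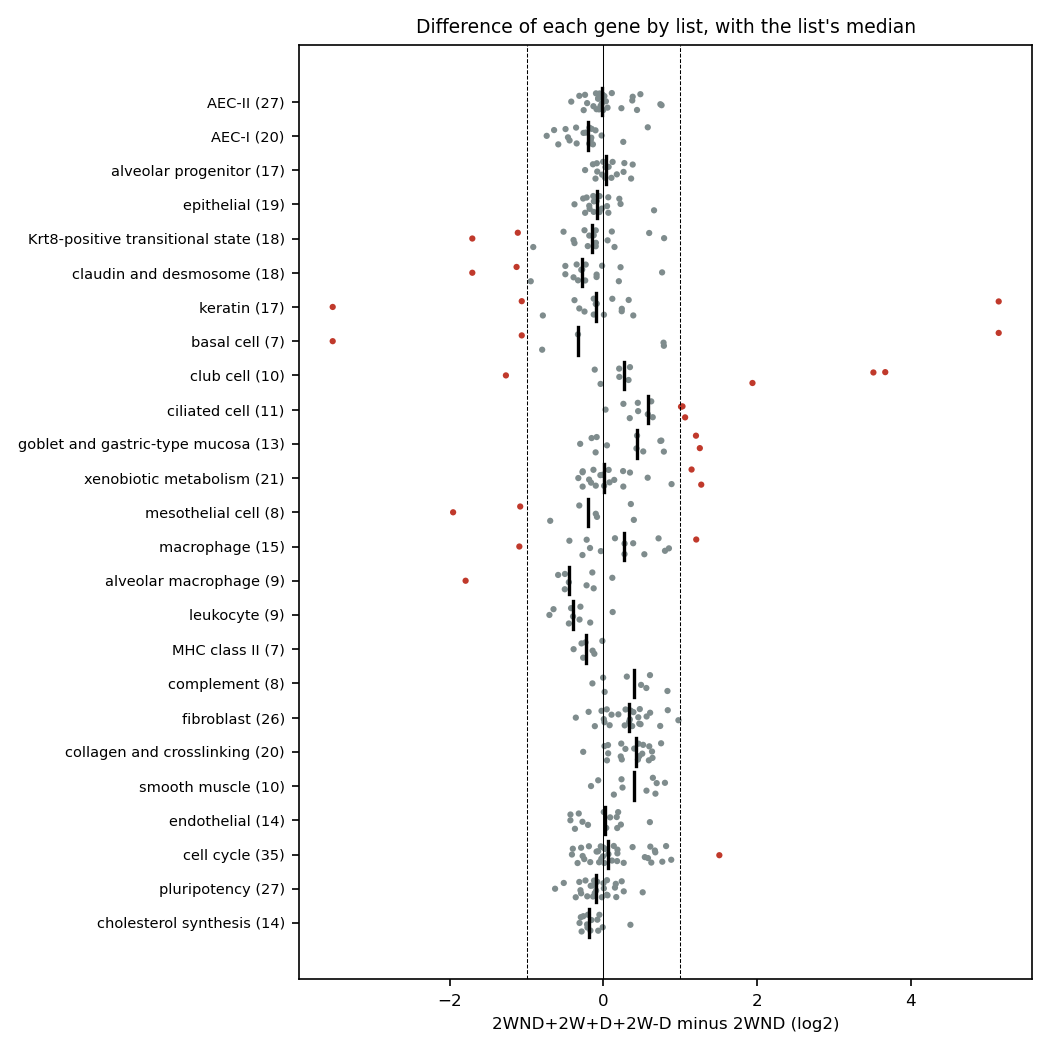
Each point is the log2 difference of 2WND+2W+D+2W-D from 2WND for 1 gene, in 25 gene lists, with the number of genes compared in parentheses. Red points are at least 2-fold different, dashed lines mark 2-fold, and black bars mark medians. AEC-II, AEC-I and epithelial genes lie within the dashed lines, and the keratin and basal cell lists hold both the largest positive and the largest negative point.

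A few keratins, the filament proteins by which epithelial layers are told apart, differed in opposite directions. Krt15, a keratin of basal cells, had 9.10 after withdrawal, against 3.96 before Dox, and 3.29 with Dox, 5.13 on Day0 and 3.92 in iPS cells. The difference was 5.15 on the log2 scale, and since the level before Dox lay below 4.78 it is given as at least 19.98-fold higher, the highest bound among the genes named. Krt14, the basal keratin that marks stratified epithelium, went the other way, with 5.14 after withdrawal, against 8.66 before Dox, 11.5-fold lower. With Dox Krt14 stood at 10.47 and on Day0 at 5.02, so after withdrawal it lay near its level in fresh cells and it overshot in terms of the classes. Krt17, a keratin of basal and injured epithelium, was 2.09-fold lower, with 7.95 after withdrawal, against 9.01 before Dox. The other 14 keratins compared were within 2-fold. In the RefSeq gene order of GRCm38.p6, Krt15 and Krt14 stand on chromosome 11 with Krt19 and Krt9 between them. Krt19, a keratin of simple epithelium, had 8.63 after withdrawal, against 8.73 before Dox. Keratins are alike in sequence, and cross-hybridization between their probes was not tested. Trp63, the transcription factor that defines basal cells, had 5.91 after withdrawal, against 5.13 before Dox, a difference of 0.78 that did not reach 2-fold.

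Several secreted proteins of the airway were higher, beside others that were not. Among the 201 genes, 16 were grouped as airway secretory and epithelial metabolism genes, 15 of them higher. The group was formed after the values were seen and holds Krt15, while Krt14 and Krt17 were put in another, so the balance of directions follows from the sorting. Scgb3a1, a secretoglobin of airway secretory cells, had 8.89 after withdrawal, against 5.22 before Dox, 12.7-fold higher, with 5.71 with Dox and 7.60 on Day0. Scgb3a2, a related secretoglobin, had 9.20 after withdrawal, against 7.26 before Dox, 3.84-fold higher. Reg3g, an antimicrobial lectin of mucosal surfaces, had 8.12 after withdrawal, against 4.60 before Dox, at least 10.1-fold higher. None of these 3 genes was 2-fold different with Dox, and on Day0 Scgb3a2 stood at 9.37 and Reg3g at 6.78, so Scgb3a2 was near its level in fresh cells and the other genes were above theirs.

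Within the club cell list, the members did not move as one. Of 10 genes, 3 were higher (Scgb3a1, Reg3g and Scgb3a2), 1 was lower and 6 were within 2-fold, with a median of 0.27. Scgb1a1, the club cell secretoglobin, had 11.52 after withdrawal, against 11.19 before Dox, and 7.39 with Dox, and was thus back at its level. The club cell cytochrome Cyp2f2 had 12.51 after withdrawal, against 12.63 before Dox, and 10.04 with Dox. Bpifa1, a surface-active secreted protein of the upper airway, was the member that was lower, with 8.96 after withdrawal, against 10.23 before Dox, and 4.8 with Dox. It had therefore gained most of the level lost with Dox without reaching that of 2WND.

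Retnla, a resistin-like protein of lung epithelium and of macrophages in type 2 immunity, was one of the genes whose level with Dox was kept. It had 10.79 after withdrawal, against 7.49 before Dox, 9.86-fold higher, with 10.59 with Dox and 12.03 on Day0. Muc5ac, the gel-forming mucin of goblet cells, kept only a small part of its difference with Dox, with 5.81 after withdrawal, against 4.55 before Dox, at least 2.03-fold higher, beside 10.50 with Dox. Of the 6 goblet and gastric-type genes that were 2-fold different with Dox, all higher there, 5 were back within 2-fold. The gastric protease Ctse was among them, with 5.88 after withdrawal, against 6.19 before Dox, and 11.91 with Dox.

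A few enzymes and a plasma protein overshot. Pon1, a lipid lactonase best known from liver, had 9.55 after withdrawal, against 7.73 before Dox, 3.55-fold higher, and 3.41 with Dox. Fgg, the fibrinogen gamma chain, was 3.46-fold higher, with 6.69 after withdrawal, against 4.90 before Dox. Adh7, an alcohol and retinol dehydrogenase of upper epithelia, was 2.42-fold higher, with 8.51 after withdrawal, against 7.24 before Dox. All 3 had been at least 2-fold lower with Dox, but Fgg had 3.82 there, so its drop lay almost wholly below 4.78. Sult1d1, a sulfotransferase, did not overshoot but differed only after withdrawal. It had 6.88 after withdrawal, against 3.19 before Dox, at least 4.27-fold higher. Of 21 xenobiotic metabolism genes, 14 had been lower and 1 higher with Dox, beside 7.56% and 6.9% of all genes. After withdrawal 2 were higher, Adh7 and the cytochrome Cyp2e1, 0 were lower, and the median was 0.01. The cytochrome Cyp2b10, for example, had 10.44 after withdrawal, against 10.48 before Dox, and 3.35 with Dox.

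Genes of motile cilia, which beat on airway cells and are built from axonemal dyneins, radial spokes and their docking proteins, included some that were at least 2-fold higher than before Dox. Of the 201 genes, 20 were grouped after their values were seen as cilia and flagella genes, and all 20 were higher, 14 of them overshooting and 6 differing only after withdrawal. Their differences ran from 1.0 to 1.54 on the log2 scale, with a median of 1.15, and 18 of the 20 were at or above 4.78 both before Dox and after withdrawal. The medians of their levels were 6.58 on Day0, 5.76 before Dox, 4.37 with Dox and 7.15 after withdrawal. Some of the 14 fell below 4.78 with Dox, such as Nme9 (4.47, against 5.73 before Dox) and Fam166b (4.43, against 5.55). Counted from 4.78, the drop of these genes with Dox was under 2-fold. Tctex1d4, a dynein light chain protein, had 8.11 after withdrawal, against 6.57 before Dox, 2.90-fold higher, and 4.10 with Dox. Nme9, a thioredoxin-domain protein of axonemes, was 2.78-fold higher, with 7.21 after withdrawal, against 5.73 before Dox. Ccdc146, a centriole and axoneme protein, had 7.27 after withdrawal, against 5.94 before Dox, and 3.47 with Dox.

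In the list of ciliated cell genes, 8 of 11 did not pass 2-fold. All 11 lay above 0, where 50.3% of all genes did, and their median was 0.58. The 3 that passed, Ccdc153, Cdhr3 and the outer arm dynein heavy chain Dnah5, are also among the 20, and the list was written with earlier results of these arrays known, so it is no independent support. Foxj1, the transcription factor that starts the motile cilia program, had 9.76 after withdrawal, against 9.42 before Dox, and 6.11 with Dox. Dynlrb2, a dynein light chain, had 9.84 after withdrawal, against 9.58 before Dox, and 4.49 with Dox. With Dox, 10 of the 11 had been at least 2-fold lower, beside 7.56% of all genes. Of these 10 genes, 8 were back within 2-fold, as were most genes that differed with Dox.

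RFX factors bind X-box motifs in promoters of cilia genes, and an arm of that motif reads GTTGCC. It was searched on both strands of the promoters in RefSeq (GRCm38.p6, from 250 bases before to 50 after the start), and stood in 12.5% of all 32851 promoters. Of the 20 cilia and flagella genes, 16 had 20 promoters there, of which 7 (35.0%) held the motif, with no test of the difference. Counted by gene, it stood in 7 of the 16, beside 14.1% of all genes with a promoter. The promoters of 3 that are well above 4.78 before Dox and after withdrawal are shown as examples, with the motif, or its complement GGCAAC in Cdhr3, in capitals. The position of the motif in the other promoters was not compared. It begins at position -66 from the start in Sntn (chr14:13670626-13670925, plus strand), a protein of the ciliary tip with 8.23 after withdrawal, against 7.19 before Dox, and 3.71 with Dox.
Sntn: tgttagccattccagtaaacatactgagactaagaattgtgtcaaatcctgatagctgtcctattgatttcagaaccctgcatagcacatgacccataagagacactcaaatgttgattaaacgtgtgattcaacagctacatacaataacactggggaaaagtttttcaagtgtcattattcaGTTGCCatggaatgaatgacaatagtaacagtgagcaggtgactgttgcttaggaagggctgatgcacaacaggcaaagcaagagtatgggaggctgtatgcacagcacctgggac
In Ccdc153 (chr9:44240427-44240726, plus strand), a coiled-coil gene of ciliated cells with 10.59 after withdrawal, against 9.56 before Dox, and 6.2 with Dox, it begins at -152.
Ccdc153: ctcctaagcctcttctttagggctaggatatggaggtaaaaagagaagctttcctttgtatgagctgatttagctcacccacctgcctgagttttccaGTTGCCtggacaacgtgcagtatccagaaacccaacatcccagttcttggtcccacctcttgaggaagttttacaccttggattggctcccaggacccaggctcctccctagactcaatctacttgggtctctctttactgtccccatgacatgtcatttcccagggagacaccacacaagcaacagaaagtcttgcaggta
In Cdhr3 (chr12:33092826-33093125, minus strand), a cadherin of ciliated cells with 9.14 after withdrawal, against 8.08 before Dox, and 4.62 with Dox, it begins at -6.
Cdhr3: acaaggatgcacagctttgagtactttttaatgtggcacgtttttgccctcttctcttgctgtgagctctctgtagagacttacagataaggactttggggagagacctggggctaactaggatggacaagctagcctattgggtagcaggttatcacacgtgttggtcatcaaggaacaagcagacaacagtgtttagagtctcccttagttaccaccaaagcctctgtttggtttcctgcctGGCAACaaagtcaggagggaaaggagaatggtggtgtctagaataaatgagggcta
A match says only that these letters stand there, and the binding of a factor was not measured.

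Some genes of stratified and mucosal surfaces were lower, whereas others, such as Krt15, Muc5ac and Reg3g, were higher, as given above. The lower ones, Krt14 and Krt17 among them, were grouped after their values were seen and with their direction known, which fixes it for the group. There were 13, of which 6 overshot, since they had been higher with Dox. Cldn4, a tight junction claudin of the transitional state that AEC-II cells pass on the way to AEC-I cells, had 7.60 after withdrawal, against 9.30 before Dox, 3.27-fold lower, and 11.41 with Dox. Msln, a surface glycoprotein of mesothelium, was 3.88-fold lower, with 6.51 after withdrawal, against 8.46 before Dox, and 10.43 with Dox. Itgb6, the integrin subunit that activates latent TGF-beta on injured epithelium, had 5.52 after withdrawal, against 6.64 before Dox, and 8.37 with Dox. On Day0 Cldn4 stood at 5.92, Msln at 5.71 and Itgb6 at 5.55, so after withdrawal Cldn4 and Msln lay between their levels in fresh cells and before Dox, and Itgb6 was near that of fresh cells. Upk3bl, a uroplakin-like protein, was 4.17-fold lower, with 5.58 after withdrawal, against 7.63 before Dox. Wfdc21, a small secreted protease inhibitor of the whey acidic protein family, was 4.07-fold lower, with 8.52 after withdrawal, against 10.54 before Dox, and 8.53 on Day0. Serpinb1a, an inhibitor of neutrophil proteases, was 2.81-fold lower.

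The lists these genes belong to were for the most part at the earlier level. Of 18 genes of the transitional state, Cldn4 and Itgb6 were lower, 0 were higher and the median was -0.16, with Krt8 itself at 10.14 after withdrawal, against 10.26 before Dox. Of 18 claudin and desmosome genes, Cldn4 and Cldn23 were lower and 15 lay below 0, with a median of -0.28. Of 8 mesothelial genes, Msln and Muc16 were lower, 0 were higher and 6 lay below 0, with a median of -0.21. Muc16 was dim, with 3.71 after withdrawal, against 4.79 before Dox, so its bound was only 1.01-fold lower.

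Myeloid genes differed in both directions. Among the 201 genes, 28 were grouped after their values were seen as myeloid, 10 higher and 18 lower. The lower ones had a median of 4.40 on Day0, 7.8 before Dox, 4.86 with Dox and 6.2 after withdrawal, and 15 of the 18 had been lower with Dox too, so they had not regained the level of 2WND. Chil3, a chitinase-like secreted protein by which alveolar macrophages are known, was 3.47-fold lower, with 10.18 after withdrawal, against 11.97 before Dox, and 4.46 with Dox. Mmp8, a collagenase of neutrophils and macrophages, had 9.98 after withdrawal, against 11.19 before Dox, and 4.62 with Dox. Fpr2, a formyl peptide receptor, was 3.08-fold lower, and Mcemp1, a mast cell and macrophage membrane protein, 3.07-fold lower. Adgre1, an adhesion receptor that marks mouse macrophages, had 8.5 after withdrawal, against 9.6 before Dox, 2.14-fold lower. S100a8, a calprotectin subunit of neutrophils and monocytes, was 3.0-fold lower, with 5.99 after withdrawal, against 7.57 before Dox.

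The higher myeloid genes included receptors and transcription factors of macrophages. Csf1r, the receptor for macrophage colony-stimulating factor, had 8.31 after withdrawal, against 7.10 before Dox, 2.31-fold higher. Maf, a transcription factor of resident macrophages, was 4.15-fold higher by the probe used, with 8.36 after withdrawal, against 6.30 before Dox, whereas a further probe of Maf had 6.96 after withdrawal, against 6.05 before Dox. F13a1, the coagulation factor XIII A chain of monocytes and macrophages, was 3.30-fold higher, and Cd300ld, an activating myeloid receptor, 4.37-fold higher. In the Ms4a cluster of membrane proteins on chromosome 19, Ms4a6b was 4.19-fold higher, with 8.75 after withdrawal, against 6.69 before Dox, and 4.81 with Dox. Ms4a4a was 2.68-fold higher, with 8.82 after withdrawal, against 7.40 before Dox, and 2.78 with Dox, and Ms4a6c was 2.19-fold higher. Their neighbor Ms4a6d had 9.32 after withdrawal, against 8.98 before Dox. These genes are close copies of one another, so cross-hybridization may join their values, which was not tested.

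Leukocyte markers as a whole lay a little lower after withdrawal, while the macrophage list was mixed. Of 9 pan-leukocyte genes, 0 passed 2-fold, 8 lay below 0 and the median was -0.40, with a median level of 8.57 after withdrawal, against 9.17 before Dox, and the common leukocyte antigen Ptprc at 7.23 after withdrawal, against 7.54 before Dox. Of 9 alveolar macrophage genes, Chil3 was lower and 8 lay below 0, with a median of -0.45. In the macrophage list 9 of 15 lay above 0, with a median of 0.27, 1 gene higher (Csf1r) and 1 lower (Adgre1). The complement C1q chains, made by resident macrophages, were all above 0, at 0.72 for C1qb, 0.80 for C1qa and 0.27 for C1qc, but within 2-fold. The cultures were started from CD45-negative, EpCAM-positive cells. Ptprc, the gene of CD45, and the macrophage gene Cd68 (11.49 after withdrawal, against 11.67 before Dox) were above 4.78. What part the number of macrophages had in these differences was not tested.

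Chia1 and Chil3 are neighbors on chromosome 3 that went opposite ways. Chia1, an acidic chitinase that AEC-II and other epithelial cells make, had 8.63 after withdrawal, against 7.12 before Dox, 2.84-fold higher, and 11.84 on Day0. Chil3, next to it, was lower, as given above, and stood at 5.47 on Day0. Both had been at least 2-fold lower with Dox, so Chia1 overshot and Chil3 did not regain its level.

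Some matrix and mesenchymal genes were at least 2-fold higher, though no gene of the fibroblast, collagen or smooth muscle lists was. Of the 201 genes, 21 were grouped so after their values were seen, all higher, 16 of which had been higher with Dox and 5 of which differed only after withdrawal, with none overshooting. Their medians were 4.98 on Day0, 5.99 before Dox, 9.18 with Dox and 7.36 after withdrawal. Itga8, an integrin subunit of myofibroblasts, was 3.05-fold higher, with 8.15 after withdrawal, against 6.54 before Dox, and 9.58 with Dox. Ednrb, an endothelin receptor, had 7.46 after withdrawal, against 5.92 before Dox, and 10.24 with Dox. Ptn, the secreted growth factor pleiotrophin, had 6.8 after withdrawal, against 5.30 before Dox, and 10.53 with Dox. Each of these lay between its level before Dox and its level with Dox.

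Of the small leucine-rich proteoglycans of the extracellular matrix, Aspn, Ogn and Fmod were among them, whereas Dcn (decorin) had 11.81 after withdrawal, against 11.42 before Dox. Aspn (asporin) had 10.31 after withdrawal, against 9.12 before Dox, and 11.37 with Dox. Ogn (osteoglycin) had 9.85 after withdrawal, against 8.79 before Dox, and 9.70 with Dox. The pair stands on chromosome 13 with Omd between them, which had 4.69 after withdrawal, against 4.43 before Dox. Hgf, a growth factor from fibroblasts for epithelium, was 2.29-fold higher, with 6.31 after withdrawal, against 5.12 before Dox, and 8.40 with Dox. Fmod (fibromodulin) was 2.03-fold higher by the probe used, and a further probe near 4.78 differed by -0.22.

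Fibroblast genes that define the cell type lay for the most part a little above 0. The matrix and mesenchymal genes above were picked for passing 2-fold, so the size of their differences cannot be set against this list. None of 26 fibroblast genes passed 2-fold, but 22 lay above 0, with a median of 0.34 and a median level of 9.88 after withdrawal, against 9.52 before Dox. None of 20 collagen and crosslinking genes passed it, 19 lay above 0 and the median was 0.42. The fibroblast surface receptor Pdgfra had 8.67 after withdrawal, against 8.63 before Dox, and Col1a2, a chain of type I collagen, had 10.18 after withdrawal, against 9.34 before Dox. Of 10 smooth muscle genes, 0 passed 2-fold, and the actin Acta2 had 8.85 after withdrawal, against 8.29 before Dox, and 11.94 with Dox. With Dox, 14 fibroblast, 12 collagen and 9 smooth muscle genes had been at least 2-fold higher, where 6.9% of all genes were. All of these were back within 2-fold, as were most genes that differed with Dox, so the return is not particular to these lists. Feeder fibroblasts and mesenchymal gene activity in the epithelial colonies cannot be told apart on these arrays.

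**Figure D4:**
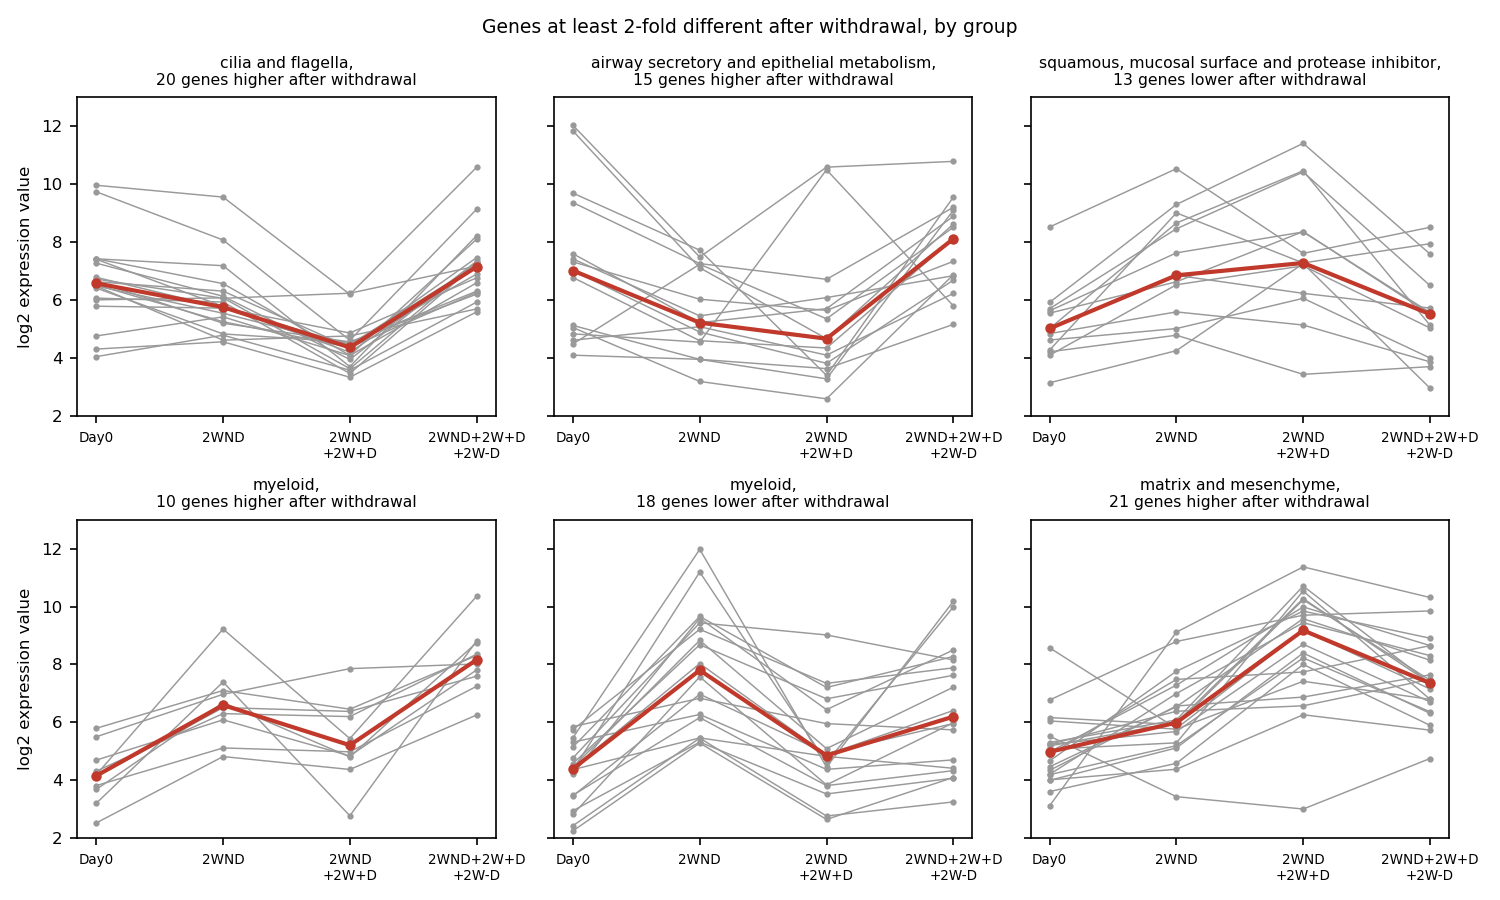
Log2 values of the genes at least 2-fold different after withdrawal, in 6 panels by group and direction, over Day0, 2WND, 2WND+2W+D and 2WND+2W+D+2W-D, with 1 array each. Thin lines are genes and the thick line is their median. The median of the cilia genes is lowest with Dox and ends at 7.15, above 5.76 before Dox, and that of the matrix genes is highest with Dox and ends at 7.36, above 5.99 before Dox.

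Cell cycle genes were close to the level before Dox. Of 35 genes, 1 was higher and 0 were lower, with a median of 0.06. With Dox, 19 had been at least 2-fold higher, beside 6.9% of all genes. Cdc20, which activates the anaphase-promoting complex, was the gene that stayed higher, with 6.53 after withdrawal, against 5.02 before Dox, 2.85-fold higher, and 7.42 with Dox. Mki67, a marker of proliferating cells, had 5.20 after withdrawal, against 4.53 before Dox, and 7.39 with Dox. Of 22 Wnt pathway genes, Wnt4, a ligand, was 2.60-fold higher with 7.24 after withdrawal, against 5.86 before Dox. The R-spondin receptor Lgr6 was 3.75-fold lower, with 6.36 after withdrawal, against 8.27 before Dox, and 6.64 with Dox. Of the 50 gene lists, 30 held no gene past 2-fold, among them the lists for MHC class II, interferon response, cholesterol synthesis, hypoxia and glycolysis, and immediate early genes. That is a weak statement, since 98.7% of all genes were within 2-fold. Over all lists, 19 genes were higher and 13 lower of 656 compared, beside 0.888% and 0.415% of all genes. The lists were written with earlier results of these arrays known.

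Small RNA genes were mostly at low values. Of the 201 genes, 19 were small RNAs, 12 higher and 7 lower, but only 4 were at or above 4.78 on both arrays. Of these, 13 were miRNA genes, and 12 of them had mature sequences in RefSeq, with 0 seeds shared between genes. Mir103-2 had 2.55 after withdrawal, against 6.17 before Dox, at least 2.61-fold lower. Mir340 had 5.21 after withdrawal, against 2.96 before Dox, at least 1.35-fold higher, and Mir196a-1, which lies among the Hoxb genes, had 5.73 after withdrawal, against 3.54 before Dox, at least 1.93-fold higher. These were chosen after their values were seen, as the largest in each direction. Their arms are shown, with the seed (bases 2 to 8) in capitals, so that their targets can be looked up, and the probe does not say which arm or precursor was measured.
miR-103-3p (chr2:131288103-131288125, plus strand): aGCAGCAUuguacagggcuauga
miR-103-2-5p (chr2:131288066-131288088, plus strand): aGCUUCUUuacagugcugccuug
miR-340-5p (chr11:50069720-50069741, plus strand): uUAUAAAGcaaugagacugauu
miR-340-3p (chr11:50069762-50069783, plus strand): uCCGUCUCaguuacuuuauagc
miR-196a-5p (chr11:96265187-96265208, plus strand): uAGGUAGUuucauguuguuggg
miR-196a-1-3p (chr11:96265225-96265246, plus strand): cAACGACAucaaaccaccugau
The 6 arms have different seeds. With Dox, Mir340 stood at 5.24 and Mir196a-1 at 4.87, close to or below their values after withdrawal, whereas Mir103-2 stood at 3.46.

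A check within the arrays was possible where a gene had further probes. Of the 201 genes, 10 had 11 further probes, 4 of which differed in the same direction and 0 of which passed 2-fold, while 5 were below 4.78 on both arrays. The myeloid adhesion ligand Selplg, for instance, was 2.61-fold lower by the probe used and differed by -0.58 by the other. For the remaining genes a single probe was read on a single array a side.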

How the data were processed

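RNA of 5 conditions was measured on 1 Affymetrix Mouse Gene 2.0 ST array each. The table that the authors deposited holds log2 values of 41345 probes, which the submitters' processing notes credit to Affymetrix Expression Console. Its version, the summarization, the normalization between arrays and the build are not given in the sources used here. Values ran from 1.25 to 13.58, with array medians from 4.71 to 4.83, and were used as deposited. The scale was read as log2 from this range. No detection calls were used, and with 1 array per condition the array number sets the precision.

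Of the probes, 23521 have 1 gene symbol in the platform annotation, 1820 several and 16004 none, and genes were named from the first kind. By gene identifier, 23328 of them matched RefSeq (GRCm38.p6, used for names, gene order, promoters and miRNAs), and 193 kept the annotation's symbol. Each gene was read from its probe of highest mean, and genes whose highest value was at least the median of all values were compared. Differences were 2WND+2W+D+2W-D minus 2WND, called at 2-fold, with the Dox difference from the same 2WND array for the classes. The members and the 50 gene lists (768 genes, 51 of them without a probe of 1 symbol) were chosen with earlier results of these data known.

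Named genes are the 15 largest differences in each direction with both arrays at or above the median, the 8 with 1 array below it by their bound, the 10 largest of each class and direction, list members past 2-fold, genes the study names and the up to 4 highest members of unchanged lists. That choice skipped symbols of predicted genes, of small RNAs and of receptor families. Other genes in the text were chosen after their values were seen, as were the groups of the 201 genes. The calculation was tested on simulated data. Alternatives were another scaling of the arrays (quantile, medians, lowess), other filters on dim genes, the mean of a gene's probes, dim values raised to the median, thresholds of 1.5-fold and 4-fold, and all probes. The tools were statsmodels 0.14.6, matplotlib 3.10.9, pandas 2.3.3, numpy 2.4.6 and scipy 1.17.1 in Python 3.11.15.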

Additional observations from a re-analysis of the deposited data

Results flagged for a closer look

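Probes without a gene symbol, which enter no gene comparison, also differed between the arrays. Of 7431 such probes at or above the median on some array, 250 were at least 2-fold higher after withdrawal than before Dox and 390 were at least 2-fold lower, 8.61% in all. Probes with exactly 1 symbol reached 1.33% by the same threshold. The robust spread of the difference was 0.37 on the log2 scale for probes without a symbol and 0.23 for those with 1 symbol. What these probes measure was not examined.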

How the results depend on the processing

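Scaling the arrays in other ways, averaging the probes of a gene, leaving out the filter on dim genes or raising dim values to the median of all values left each of the 6 counts within 1.5 times its value, and the median of all genes moved to at most 0.06 (medians aligned, with 160 genes higher and 52 lower). With the filter at the 75th percentile, 85 genes were higher, 38 lower and 41 different only after withdrawal. With both arrays at or above the median, 37 were lower, 46 kept the direction of Dox and 56 differed only after withdrawal. At 1.5-fold, 611 were higher and 347 lower, 398 kept the direction of Dox, 212 overshot, 4070 were back and 348 differed only after withdrawal. At 4-fold, the counts were 16, 6, 5, 0, 531 and 17 in the same order. With all probes, they were 411, 463, 322, 114, 3450 and 438, so that lower probes then outnumbered higher ones. Fewer genes enter under the stricter filters, and more probes enter under the last. Of the 137 higher and 64 lower genes, 131 and 57 were still called after quantile normalization, and 105 and 43 with dim values raised to the median. Of the differences of named genes under these alternatives, 29 moved by more than the spread of all genes, 0.23, of which 21 with dim values raised and 8 with the mean of probes, and so did 11 medians of lists. No named gene reversed a called direction. The filters and the raised dim values could not have reversed one, and no list median was large enough to be called.

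No paired analysis was possible because each condition has 1 array and the labels give no replicate numbers. For the same reason no array was left out. Depth does not apply to arrays, and signal over background is unknown for single probes. Genes with an array below 4.78 are the least certain, and the range of the differences that replicate cultures would show is unknown.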

Other observations

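A few further genes were chosen after their values were seen. Atp6v0a4, a subunit of the proton pump of acid-secreting epithelia, had 9.03 after withdrawal, against 7.36 before Dox, 3.17-fold higher, and 7.69 with Dox. Fxyd4, a regulator of the sodium pump, was 3.77-fold higher, with 7.79 after withdrawal, against 5.88 before Dox. Kcnrg, a potassium channel regulator, was 6.21-fold higher, with 7.59 after withdrawal, against 4.96 before Dox, and 7.44 on Day0. Lcn8, a lipocalin known from epididymis, had 6.69 after withdrawal, against 3.75 before Dox, at least 3.76-fold higher. In the other direction, the organic anion transporter Slco2b1 was 2.79-fold lower by the probe used, with 5.85 after withdrawal, against 7.33 before Dox, and the calcium-activated potassium channel Kcnn3 was 2.49-fold lower.

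Among the chemokine and interleukin genes, 2 of 28 were higher and 0 were lower. Ccl20, which attracts CCR6-bearing lymphocytes and dendritic cells, had 6.48 after withdrawal, against 5.23 before Dox, and Ccl3, a macrophage chemokine, had 7.60 after withdrawal, against 6.51 before Dox. Among the brightest genes, the tubulin Tuba1b was 2.13-fold higher, with 11.62 after withdrawal, against 10.53 before Dox, and 11.61 with Dox. Susd2, a membrane protein of mesenchymal and epithelial cells, was 2.53-fold higher, with 10.08 after withdrawal, against 8.74 before Dox.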
